A study of Mus musculus with 12 samples.

Results

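The cytochrome P450 genes of the mouse were described in neural stem cells taken from the subventricular zone, the stem cell niche along the lateral ventricles of the adult brain. The members were chosen by name: every gene whose only symbol on a probe set of the platform annotation begins with Cyp and a digit, Cyp51 excepted. There were 72 such genes among 18193 genes with a symbol of their own, and they held 95 of the 45037 probe sets. No intensity decided which gene became a member. The family itself was picked for description with its intensities in the 3 cell states already known, so its counts of called genes below are printed beside the share over all genes and carry no test of the family.

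Cytochromes P450 are heme enzymes that insert an oxygen atom into lipids and foreign compounds, using electrons passed on by reductases. Some have fixed tasks in making or breaking down cholesterol, bile acids, steroid hormones, vitamin D and retinoic acid, others hydroxylate or epoxidize fatty acids, and the large liver families clear drugs and toxins. In the brain the family is known for cholesterol removal by 24-hydroxylation, for oxysterol and neurosteroid breakdown, and for epoxides made from arachidonic acid in glia and vessels.

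The samples were neural stem cells of adult male C57B6J mice, freshly isolated from brain tissue by flow cytometry and hybridized to Affymetrix MOE 430 2.0 arrays after whole-transcriptome amplification. The 3 groups were quiescent cells, quiescent cells 48 h after irradiation, and activated cells, with 4 samples described for each; no transgene or other treatment is named. Since 2 of the 12 samples, quiescent replicate 3 and activated replicate 4, were not analysed here for want of values, there were 3 quiescent, 4 irradiated quiescent and 3 activated arrays. The sources used here do not give the radiation dose, the sort markers, the age in weeks or the animals behind a sample. Nothing says that replicates came from separate animals, so p-values measure only the spread between these arrays. The question of the comparisons was how the cell states differ in gene expression.

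Values are intensities on a linear scale, between 3 and 34883 over the table. Intensities up to 10 count as near the lower limit, where 56.6% to 59.2% of the probe sets of an array lay, and the 75th percentile of an array lay between 83 and 104. Differences are of log2(intensity + 16), with a standard error (SE), and adjusted p-values are from limma fitted to all genes with Benjamini-Hochberg adjustment. Calls were made at an adjusted p under 0.05, and this scale understates the change of a gene that is near the limit in one group. Group labels were set against marker genes. The summed intensity of 9 measured genes of dividing cells was 41323 to 47249 on the activated arrays. It was 1016 to 2749 on the quiescent and 405 to 1807 on the irradiated ones. Of the 9, 8 were called higher in activated against quiescent cells. Most of the quiescent sum came from the other, Egfr, at 683 to 2488 there and 3359 to 4935 on the activated arrays (adjusted p = 0.246). The sum of 10 quiescent stem cell and astroglia genes was 35066 to 47081, 100625 to 113183 and 98826 to 109583 in the same order. Of these 6 were called lower in activated against quiescent cells, and Gfap, Sox2, Sox9 and Aqp4 were not called. Gfap read 418, 164 and 7 in quiescent and 152, 108 and 26 in activated cells. Of the markers of other cells, 4 of 7 measured for oligodendrocytes fell in activated against quiescent cells, and the 7 had a summed intensity of 1272 to 3614 on the activated arrays against 11174 to 21406 on the others. On the quiescent and irradiated arrays the sum of 3 further lists came mostly from 1 gene, the only one called lower. Among 9 endothelial genes (sum 2546 to 3076 against 10145 to 18393) this was Slc2a1, the glucose transporter, at 1934 to 2936 against 8861 to 18278, while the others, Pecam1, Cdh5 and Cldn5 among them, were between 5 and 524. Among 6 choroid plexus genes (36 to 128 against 10050 to 20269) it was Ttr, transthyretin, at 6 against 9992 to 19809, while the others were between 4 and 238, with Folr1 near the limit on all arrays. Among 6 ependymal genes (40 to 155 against 661 to 2613) it was Rarres2, a secreted protein, at 15 to 126 against 636 to 2580, while Foxj1 and the others were between 4 and 57, with Tmem212 and Enkur near the limit on all arrays. Among 9 pericyte and fibroblast genes, of which Dcn and Lum were near the limit on all arrays, 2 were called lower, and the sum was 417 to 812 against 2253 to 8028. The 2 were Col1a1 and Pdgfrb, and Pdgfrb read 63 to 153 on the activated arrays against 698 to 6802 on the others. Of 6 neuroblast genes 2, Cd24a and Tubb3, were called higher, with a sum of 14367 to 21178 against 158 to 1913. The largest part of this sum was Sox11, at 9669 to 11514 against 124 to 1798, which was not called (adjusted p = 0.0751). Of 8 microglia genes 0 were called by limma, 4 were near the limit on all arrays, and the sum was 86 to 2991 against 41 to 766, its highest value resting on Csf1r (2520 on activated replicate 3). The part of these genes' cells in each difference below was not tested, and in bulk RNA fewer cells of a type and less RNA per cell cannot be told apart.

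Most of the family was near the lower limit. On all 10 arrays 57 of the 72 genes (79.2%) had an intensity of at most 10, against 5775 of all 18193 genes (31.7%). The remaining 15 genes passed this limit on at least 1 array, 7 of them on every array, and 11 reached a mean of at least 100 in some group. By role, the 11 were 3 of 6 sterol and bile acid genes, 6 of 19 fatty acid genes, 1 of 36 genes of the xenobiotic families, and Cyp20a1, whose substrate is not known. None of the 5 steroid hormone, 3 vitamin D and 2 retinoic acid genes reached it.

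**Figure D1:**
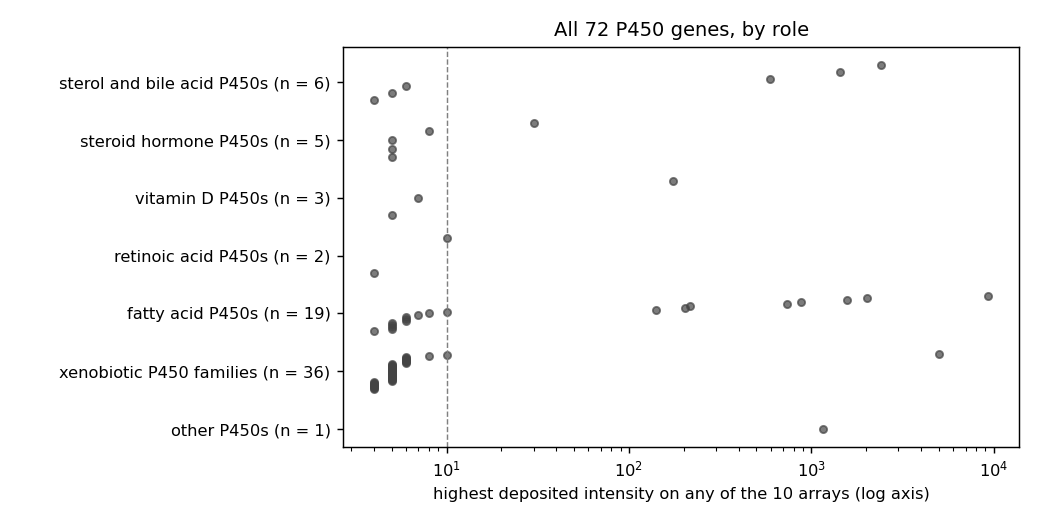
Highest intensity on any of the 10 arrays (log axis) of each of the 72 cytochrome P450 genes, 1 point per gene, in rows by role, with a dashed line at the lower limit of 10 and points spread vertically only to separate them. In the xenobiotic row 35 genes lie at or left of the line and 1, Cyp2d22 at 4997, far right of it, and in the fatty acid row 11 lie at or left of it and 8 to the right.

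Activated cells had far lower intensities of several P450 genes that quiescent cells expressed. In activated against quiescent cells 6 members fell (3.12% of all genes did) and 1 rose (2.89% of all genes did). In activated against irradiated quiescent cells 7 members fell (3.68% of all genes) and 1 rose (3.40%). Both comparisons share the activated arrays, so their values are given side by side and not as independent evidence. The members that fell were Cyp7b1, Cyp2j9, Cyp4f14, Cyp4f15, Cyp4v3 and Cyp2d22, with Cyp2j6 added in the second comparison, and the one that rose was Cyp39a1. The groups did not overlap, with the activated arrays lower, for 10 members in the first comparison (9.47% of all genes) and 8 in the second (7.99%). At 48 h after irradiation there was no call: 0 of the 72 members differed from quiescent cells by adjusted p in limma (0.0110% of all genes did, 2 in number), and 0 had an unadjusted p under 0.05 (3.96% of all genes). The median difference over the 72 members was 0 in all 3 comparisons, as it was over all genes, since most members did not leave the lower limit.

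**Figure D2:**
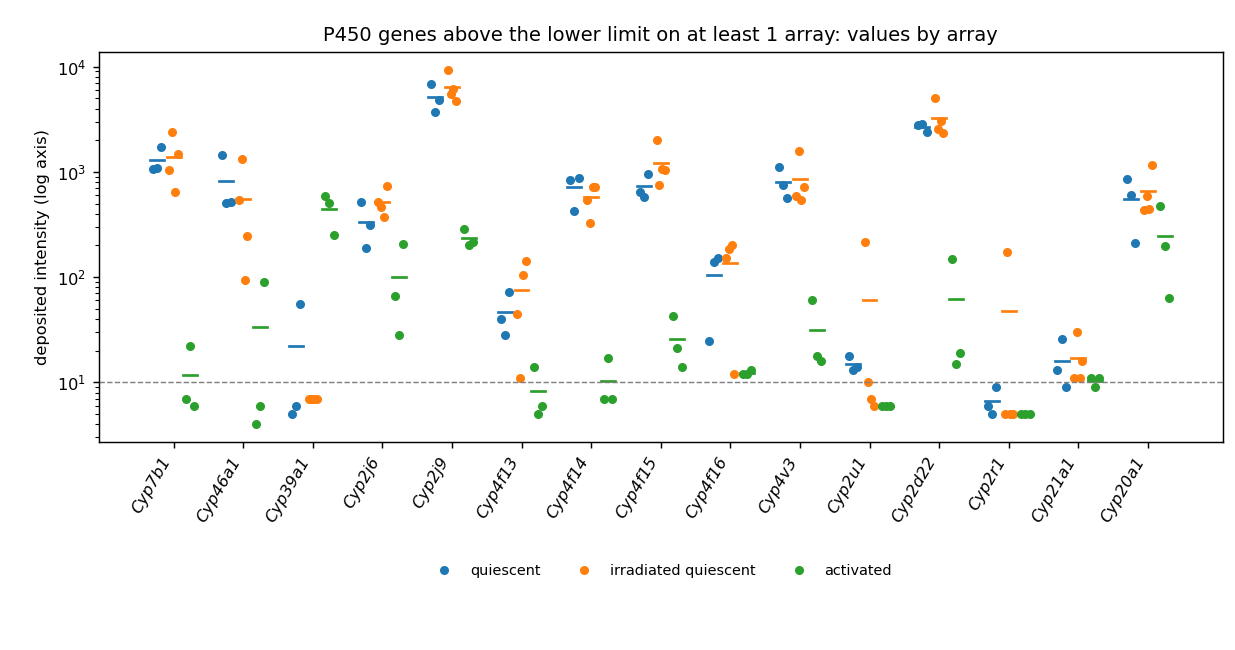
Intensity (log axis) of each of the 15 cytochrome P450 genes that passed the lower limit on some array, with 1 point per array coloured by group, a short line at each group mean and a dashed line at 10. For Cyp7b1 the 3 activated points lie between 6 and 22 and the other 7 between 641 and 2394, and for Cyp39a1 the 3 activated points lie between 249 and 591, above all the others.

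Among the sterol and bile acid genes, Cyp7b1, the oxysterol 7-alpha-hydroxylase that removes side-chain oxysterols and several steroids, was read by a probe set whose name carries the suffix for probes that may match more than 1 transcript. Its intensity was 1077, 1088 and 1721 on the quiescent arrays, 1036, 2394, 641 and 1493 on the irradiated ones, and 7, 22 and 6 on the activated ones. All 7 quiescent and irradiated arrays were high, and the activated arrays were at or just over the lower limit with no overlap. The group means were 1295 ± 369 (SD, n = 3), 1391 ± 754 (SD, n = 4) and 11.7 ± 8.96 (SD, n = 3). The gene fell by 5.58 on the log2 scale from quiescent to activated cells (SE 0.48, adjusted p = 6.53e-04), and activated cells were lower than irradiated ones by a log2 difference of -5.55 (SE 0.45, adjusted p = 4.07e-04). A second probe set split the arrays the same way, with 321, 965 and 901 in quiescent, 308, 1137, 165 and 470 in irradiated, and 5, 5 and 8 in activated cells, while the third was near the limit on all arrays but irradiated replicate 2, where it read 101.

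Cyp39a1, which 7-alpha-hydroxylates 24-hydroxycholesterol, ran the other way. Its intensity was 591, 501 and 249 on the activated arrays, 5, 6 and 56 on the quiescent ones and 7 on each of the 4 irradiated ones. The 3 activated arrays stood above all others, and among the rest only quiescent replicate 4 left the lower limit. The mean was 447 ± 177 (SD, n = 3) in activated and 22.3 ± 29.2 (SD, n = 3) in quiescent cells. It rose by a log2 difference of 3.76 from quiescent to activated cells (SE 0.50, adjusted p = 0.00484), and was 4.25 higher in activated than in irradiated cells (SE 0.47, adjusted p = 0.00180). With only the 2 groups compared in the fit, the first of these calls was lost (adjusted p = 0.0703).

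Cyp46a1, the cholesterol 24-hydroxylase, makes the form of cholesterol that leaves the brain and is known mainly from neurons. It read 1442, 501 and 519 on the quiescent arrays, 544, 1328, 94 and 245 on the irradiated ones and 4, 6 and 90 on the activated ones. The activated arrays were lowest without overlap, though activated replicate 3 at 90 was next to irradiated replicate 3 at 94. It was the member just outside the threshold: the log2 difference was -4.36 in activated against quiescent cells (SE 1.05, adjusted p = 0.0577) and -3.41 against irradiated cells (SE 0.98, adjusted p = 0.0981). Without activated replicate 3 the first comparison passed, at -5.14 (adjusted p = 0.0468). Quiescent replicate 1, its highest array, was also highest for the summed intensity of 8 mature neuron markers, of which Slc17a7 was near the limit on all arrays: the sum was 12241 there, 1484 to 2718 on the other quiescent arrays, 1666 to 2193 on the irradiated and 267 to 923 on the activated ones. On quiescent replicate 1 most of the sum came from Penk (5160) and Snap25 (4226). Irradiated replicate 2, second highest for Cyp46a1 at 1328, had the lowest sum of the irradiated arrays, 1666, of which Ppp1r1b made up 1360. Of the 8 markers only Syt1 was called lower in activated against quiescent cells (adjusted p = 0.0494). The part of neurons in the Cyp46a1 values was not tested. Cyp7a1, the first enzyme of the classical bile acid route, read 5 on all arrays, Cyp8b1, the sterol 12-alpha-hydroxylase, read 4, and Cyp27a1, the mitochondrial sterol 27-hydroxylase, read 5 or 6.

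The steroid, vitamin D and retinoic acid enzymes were near or little above the limit. Cyp11a1, which cuts the side chain of cholesterol to start steroid synthesis, read 6 to 8, and Cyp17a1, Cyp11b1 and Cyp11b2 of the later adrenal and gonadal steps read 5 throughout. Cyp21a1, the 21-hydroxylase, was the 1 steroid gene above the limit, at 13, 26 and 9 in quiescent, 11, 30, 11 and 16 in irradiated and 11, 9 and 11 in activated cells, and its groups overlapped. A second probe set of Cyp21a1 read 5 on all arrays. Of the vitamin D enzymes, Cyp27b1, which activates the hormone, read 4 or 5 and Cyp24a1, which degrades it, read 5 to 7. Cyp2r1, a vitamin D 25-hydroxylase, read 5 to 9 on 9 arrays and 174 on irradiated replicate 2. The retinoic acid hydroxylases that degrade this signal, Cyp26a1 and Cyp26b1, read 4 on all arrays and 5 to 10. None of these genes was called in any of the 3 comparisons, and at these intensities a change between low levels could not have been seen.

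The fatty acid enzymes held most of the members that fell, but also 8 of the 15 members above the limit and 6 of the 11 with a group mean of at least 100. Cyp2j9, of the subfamily that epoxidizes arachidonic acid, read 6865, 3735 and 4813 in quiescent, 9349, 5529, 6121 and 4676 in irradiated, and 286, 200 and 216 in activated cells. The activated arrays lay close together and far under the others, yet well above the lower limit. The means were 5138 ± 1590 (SD, n = 3), 6419 ± 2042 (SD, n = 4) and 234 ± 45.7 (SD, n = 3). The log2 difference was -4.34 in activated against quiescent cells (SE 0.31, adjusted p = 2.51e-04) and -4.65 against irradiated cells (SE 0.29, adjusted p = 1.08e-04).

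Cyp2j6, its relative, differed less. It read 514, 188 and 310 in quiescent, 512, 468, 369 and 732 in irradiated, and 66, 28 and 206 in activated cells. Activated replicate 3 at 206 stood above quiescent replicate 2 at 188, so these groups overlapped, while every irradiated array was above every activated one. Activated against irradiated cells it was the member just inside the threshold, with a log2 difference of -2.49 (SE 0.57, adjusted p = 0.0445), and against quiescent cells it was not called, at -1.82 (SE 0.61, adjusted p = 0.178). The first call was lost when any array but activated replicate 3 was left out (9 of 10 arrays, adjusted p up to 0.136 without activated replicate 1), with only the 2 groups compared (adjusted p = 0.0911) and with quantile normalization (adjusted p = 0.0517). Without activated replicate 3 the comparison with quiescent cells passed, at -2.45 (adjusted p = 0.0417).

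The Cyp4 enzymes add a hydroxyl group at the far end of fatty acids, and those of the Cyp4f subfamily are known for inactivating leukotrienes. Cyp4f14 read 846, 425 and 879 in quiescent, 538, 328, 726 and 715 in irradiated, and 7, 17 and 7 in activated cells. Cyp4f15 read 643, 581 and 962, then 2015, 753, 1070 and 1039, and 43, 21 and 14 in the same order. For both genes the activated arrays were far under all the others. The log2 difference of Cyp4f14 was -4.75 against quiescent (SE 0.38, adjusted p = 4.77e-04) and -4.45 against irradiated cells (SE 0.36, adjusted p = 4.07e-04), and that of Cyp4f15 was -4.17 (SE 0.40, adjusted p = 0.00105) and -4.84 (SE 0.38, adjusted p = 3.46e-04).

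The 2 other Cyp4f genes above the limit were weaker and not called. Cyp4f13 read 40, 28 and 73 in quiescent, 45, 11, 105 and 141 in irradiated, and 14, 5 and 6 in activated cells, with differences of -1.33 (adjusted p = 0.391) and -1.64 (adjusted p = 0.201) on the log2 scale for activated against quiescent and against irradiated cells. Cyp4f16 read 25, 138 and 153, then 151, 186, 202 and 12, and 12, 12 and 13, with differences of -1.85 (adjusted p = 0.378) and -2.08 (adjusted p = 0.240). Irradiated replicate 4 of Cyp4f16 lay with the activated arrays, and without it the second difference was -2.78 and passed (adjusted p = 0.0335). A second probe set of Cyp4f16 did not show this difference: it read 11 on quiescent replicate 4 and 5 on all other arrays. Close relatives in the Cyp4f, Cyp2j and Cyp2d subfamilies have like sequences, so probes could read more than 1 of them.

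Cyp4v3, a fatty acid omega-hydroxylase whose human counterpart is CYP4V2, read 1102, 755 and 563 in quiescent, 592, 1574, 544 and 721 in irradiated, and 61, 18 and 16 in activated cells. The activated arrays did not overlap the others. The log2 difference was -4.18 against quiescent cells (SE 0.51, adjusted p = 0.00300) and -4.18 against irradiated cells (SE 0.48, adjusted p = 0.00198). Its probe set may match several transcripts, and the second was dimmer and less regular, with 17, 97 and 103 in quiescent, 244, 7, 92 and 8 in irradiated, and 4, 6 and 9 in activated cells. Cyp2u1, another fatty acid hydroxylase, read 6 on all 3 activated arrays, 18, 13 and 14 in quiescent and 217, 10, 7 and 6 in irradiated cells, and was not called. The other 11 fatty acid members, with Cyp4a, Cyp4b1, Cyp4x1 and the other Cyp2j genes among them, read 4 to 10 on all arrays.

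**Figure D3:**
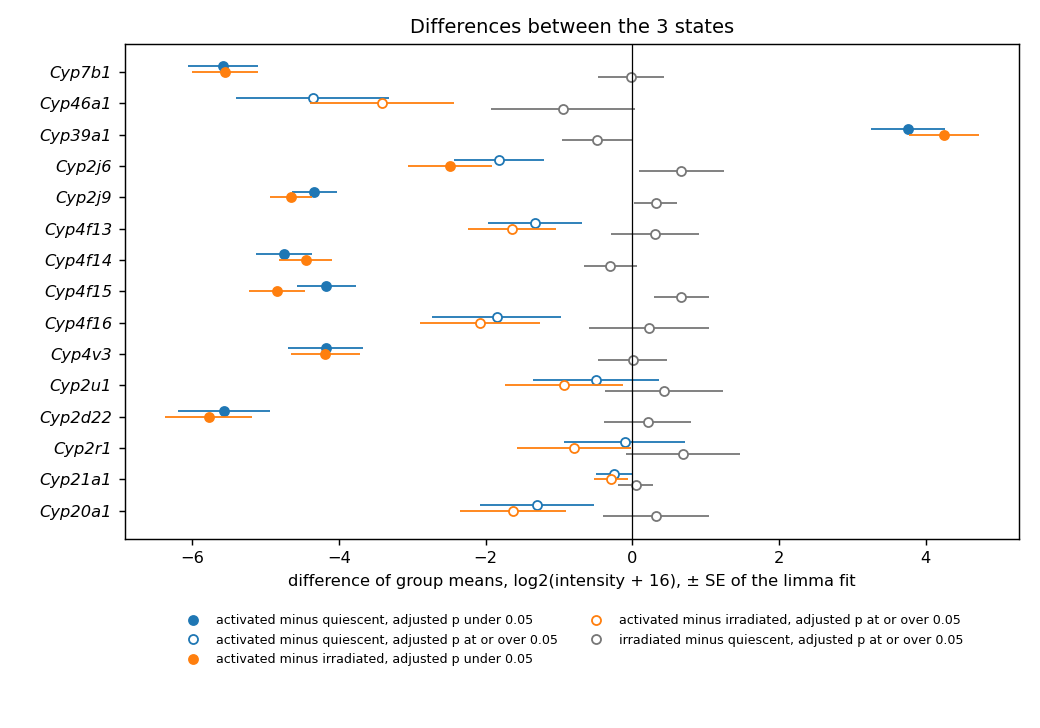
Difference of group means of log2(intensity + 16) for the 15 cytochrome P450 genes above the lower limit, coloured by comparison, with bars of ± 1 SE of the limma fit and filled points where the adjusted p is under 0.05. In both comparisons with activated cells Cyp7b1 and Cyp2d22 lie under -5 and Cyp39a1 above 3, and the grey points of irradiated against quiescent cells are all open.

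Of the xenobiotic families, 35 of 36 genes read 4 to 10 on all arrays. They include Cyp1a1, Cyp1a2 and Cyp1b1, which oxidize polycyclic aromatic compounds (5 for the first pair, 5 or 6 for Cyp1b1), Cyp2e1, the ethanol-oxidizing enzyme, at 4, and Cyp3a11, a main drug-clearing enzyme of mouse liver, at 4. The exception was Cyp2d22, a Cyp2d enzyme. It read 2794, 2827 and 2394 in quiescent, 4997, 2558, 3023 and 2324 in irradiated, and 150, 15 and 19 in activated cells. Activated replicate 1 was the highest of its group, and all 3 were far under the rest. The means were 2672 ± 241 (SD, n = 3), 3226 ± 1216 (SD, n = 4) and 61.3 ± 76.8 (SD, n = 3), and the log2 difference was -5.57 against quiescent (SE 0.63, adjusted p = 0.00212) and -5.78 against irradiated cells (SE 0.59, adjusted p = 0.00118). A second probe set gave 2747, 1981 and 3576, then 4649, 2440, 3461 and 2537, and 34, 88 and 5 in activated cells, where its highest array was replicate 2.

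Cyp20a1, a conserved P450 without a known substrate, was above the limit on every array and was not called. It read 853, 601 and 212 in quiescent, 437, 591, 448 and 1153 in irradiated, and 472, 196 and 63 in activated cells, and all groups overlapped. The log2 difference of activated against quiescent cells was -1.30 (adjusted p = 0.551) and that against irradiated cells -1.63 (adjusted p = 0.318).

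Irradiated and quiescent cells were not separated for any member, but the intervals leave room for sizeable differences. The 95% interval of the log2 difference was -0.36 to 0.99 for Cyp2j9, -1.14 to 0.54 for Cyp4f14, -0.21 to 1.55 for Cyp4f15, -1.07 to 1.03 for Cyp7b1, -1.11 to 1.11 for Cyp4v3 and -1.17 to 1.58 for Cyp2d22. It was widest for Cyp46a1, at -3.24 to 1.34, whose irradiated arrays ran from 94 to 1328. All adjusted p-values of the 15 members above the limit were between 0.970 and 1.00.

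Neighbouring genes of a subfamily differed in level class. In the RefSeq gene order of GRCm38.p6 (the array values carry no build, so only order is used) the 8 protein-coding Cyp2d genes lie in 1 stretch with 1 other gene, and of the 7 measured there only Cyp2d22, at the end of the stretch, was above the limit. The 7 Cyp2j genes lie with no other gene between them, 5 were measured, and the 2 above the limit, Cyp2j6 and Cyp2j9, are direct neighbours, while Cyp2j5, Cyp2j11 and Cyp2j13 stayed near it. In the stretch of 8 Cyp4f genes, which holds 4 other genes, 5 were measured and 4 were above the limit, with Cyp4f39 at its outer end near it.

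Promoter windows from RefSeq (GRCm38.p6), 250 bases before to 50 bases after a gene's start, were found for 51 of the 72 members, 58 windows in all because some genes have several starts, whose windows share bases. Cyp2d22, Cyp7b1, Cyp39a1, Cyp21a1 and Cyp2u1 have no entry in the table used. The windows below show the neighbours Cyp2j9, which fell in both comparisons with activated cells, and Cyp2j6, called only against irradiated cells, then Cyp4f15, which fell in both, beside members that stayed near the limit (Cyp1a2 and Cyp2e1). Each runs 5′ to 3′ on the gene's strand, and capitals mark TATAAA, the core of the TATA box. They lie at chr4:96591436-96591735 (minus strand), chr4:96553602-96553901 (minus strand), chr17:32685409-32685708 (plus strand), chr9:57683606-57683905 (minus strand) and chr7:140763569-140763868 (plus strand).
Cyp2j9: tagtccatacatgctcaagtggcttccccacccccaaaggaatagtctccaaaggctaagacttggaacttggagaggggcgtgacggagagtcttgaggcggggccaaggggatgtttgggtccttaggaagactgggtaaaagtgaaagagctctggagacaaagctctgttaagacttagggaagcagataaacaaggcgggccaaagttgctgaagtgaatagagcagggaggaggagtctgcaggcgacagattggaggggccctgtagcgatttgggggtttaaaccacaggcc
Cyp2j6: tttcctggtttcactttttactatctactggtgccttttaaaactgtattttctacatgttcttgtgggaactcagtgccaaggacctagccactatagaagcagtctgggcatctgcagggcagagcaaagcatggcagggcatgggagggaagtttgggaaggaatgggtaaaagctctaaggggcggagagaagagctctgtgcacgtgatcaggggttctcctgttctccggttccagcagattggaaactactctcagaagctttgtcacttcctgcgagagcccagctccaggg
Cyp4f15: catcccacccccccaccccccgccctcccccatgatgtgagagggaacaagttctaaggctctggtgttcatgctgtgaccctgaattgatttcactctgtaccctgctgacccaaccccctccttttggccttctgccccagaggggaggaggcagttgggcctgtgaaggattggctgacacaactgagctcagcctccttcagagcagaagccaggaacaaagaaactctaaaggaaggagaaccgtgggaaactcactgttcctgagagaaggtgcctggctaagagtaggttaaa
Cyp1a2: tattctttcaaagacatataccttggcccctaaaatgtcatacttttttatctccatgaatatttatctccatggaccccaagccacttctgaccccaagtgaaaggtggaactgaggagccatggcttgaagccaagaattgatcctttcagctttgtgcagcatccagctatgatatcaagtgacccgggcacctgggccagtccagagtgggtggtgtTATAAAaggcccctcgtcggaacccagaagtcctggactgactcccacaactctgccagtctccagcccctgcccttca
Cyp2e1: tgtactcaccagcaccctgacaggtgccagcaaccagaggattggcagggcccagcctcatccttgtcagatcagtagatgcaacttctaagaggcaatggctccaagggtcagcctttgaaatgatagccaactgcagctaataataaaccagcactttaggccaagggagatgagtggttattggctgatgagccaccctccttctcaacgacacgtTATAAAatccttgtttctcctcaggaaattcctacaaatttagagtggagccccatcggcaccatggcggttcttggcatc

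TATAAA was searched on the gene's strand. It was in 15 of the 58 windows of the family (25.9%), against 2733 of all 32851 windows (8.32%). It was in 0 of 13 windows of the 10 genes above the limit and in 15 of 45 windows (33.3%) of the 41 genes near it. By gene this was 0 of the 10 and 15 of the 41. Several of the 13 windows were overlapping ones of Cyp4f14, and Cyp7b1, Cyp2d22 and Cyp39a1 had no window. Several of the 15 genes are close relatives of the Cyp2c or Cyp3a subfamily, so their windows are not independent. The near-limit windows shown above, of Cyp1a2 and Cyp2e1, both hold a match, while most of the 41 genes have none. The match began between -40 and -20 from the start in 7 of the 15 windows, at -29 in Cyp1a2 and at -31 in Cyp2e1. TNGCGTG, the core that the AHR and ARNT pair binds before Cyp1a1 and other genes, was searched on both strands and was in 1 of the 58 windows (1.72%), against 1664 of all windows (5.07%). The median GC content was 54% in the windows of genes above the limit, 49% in those of genes near it and 52.7% in all windows. These are matches of letters in a short window, and they were not tested.

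The genes that work with the P450 enzymes were described from 8 lists of 106 genes, of which 92 were measured. Of the 92, 10 fell and 0 rose in activated against quiescent cells, 14 fell and 0 rose in activated against irradiated cells, and 0 were called in irradiated against quiescent cells. The first count was 5 with only the 2 groups compared and 6 without quiescent replicate 2 or without activated replicate 2. The shares over all genes given above hold for these comparisons too.

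The supply lines of the P450 enzymes gave no call. Of the electron donors and partners 7 of 9 listed genes were measured, with a median log2 difference of 0.17 in activated against quiescent cells and -0.33 against irradiated cells, and 12 heme synthesis and breakdown genes were measured, with medians of 0.22 and 0.06. Cyb5r3 of the donor list read 339, 43 and 5 in quiescent and 5, 67, 1711 and 1874 in irradiated cells. The activated arrays, at 3638, 6420 and 3854, were above all of these. The log2 differences, 5.89 (SE 1.91, adjusted p = 0.159) and 4.03 (SE 1.78, adjusted p = 0.313), were not called. Lower in activated cells were Cyb5a and Pgrmc2 against quiescent, and Cyb5a, Cyb5b, Cyb5r1 and Fdx1 against irradiated cells, none of them called. Por and Fdxr, the reductases of the microsomal and mitochondrial enzymes, were not analysed here. The median over all genes was 0 in both comparisons.

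Of 17 measured receptors and partners that control P450 genes, 0 were called against quiescent cells and 2 fell against irradiated cells. Ppara, the fatty acid receptor that drives Cyp4a genes in liver, read 48, 121 and 20 in quiescent, 311, 471, 244 and 732 in irradiated, and 19, 13 and 17 in activated cells. The irradiated arrays were the highest without overlap, and activated cells were lower than them by a log2 difference of -3.70 (SE 0.51, adjusted p = 0.00473). Arnt2, a partner of AHR-type factors in neural cells, read 166, 347 and 374 in activated against 1552, 604, 935 and 1306 in irradiated cells, a difference of -1.83 (adjusted p = 0.0335) that lost its call in 8 of the 10 fits that left out an array (adjusted p up to 0.0929 without activated replicate 1), with only the 2 groups compared (0.0927) and with the mean of its probe sets (0.134). Ahr read 5 on all arrays but quiescent replicate 4, where it read 143.

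Of 11 measured epoxide hydrolases and arachidonate enzymes, Ephx2 fell in both comparisons and Ephx1 in the second. Ephx2, the soluble hydrolase that opens the epoxides made by Cyp2j enzymes, read 1050, 1906 and 946 in quiescent, 1661, 1402, 941 and 1238 in irradiated, and 11, 39 and 10 in activated cells, with no overlap. Its log2 difference was -5.21 against quiescent (SE 0.39, adjusted p = 3.21e-04) and -5.27 against irradiated cells (SE 0.36, adjusted p = 1.91e-04). Ephx1, the microsomal hydrolase, read 318, 33 and 64 in quiescent, 909, 1799, 977 and 991 in irradiated, and 7 on each activated array, a difference of -5.63 against irradiated cells (SE 0.61, adjusted p = 0.00157). All 4 irradiated arrays were above the quiescent ones, but the difference of 3.38 was not called (SE 0.61, adjusted p = 0.503), and it passed without quiescent replicate 1, at 4.18 (adjusted p = 0.0182).

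Among the genes that handle the substrates, 2 of 12 oxysterol and cholesterol genes fell in both comparisons, and the median of the 12 was -1.31 against quiescent and -1.11 against irradiated cells. Abcg1, a sterol exporter, read 171, 236 and 452 in quiescent, 154, 230, 233 and 472 in irradiated, and 7, 11 and 6 in activated cells, with differences of -3.55 (adjusted p = 0.00336) and -3.48 (adjusted p = 0.00241). Apoe, the main lipid carrier of the brain, differed by -3.09 (adjusted p = 0.0170) and -3.39 (adjusted p = 0.00748), and the first was lost in 3 of the 10 fits that left out an array (adjusted p up to 0.0644, without activated replicate 2) and when the fit held only the 2 groups compared (adjusted p = 0.122). Of 9 steroid genes Hsd11b1, which regenerates active glucocorticoid, fell in both comparisons: it read between 849 and 1396 in quiescent, between 651 and 1235 in irradiated and between 9 and 14 in activated cells, with differences of -5.35 (adjusted p = 4.75e-05) and -5.14 (adjusted p = 3.59e-05). Of 11 retinoid genes Dhrs3, which reduces retinaldehyde to retinol, fell too, with differences of -4.23 (adjusted p = 0.0106) and -4.35 (adjusted p = 0.00596).

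The 13 measured conjugation and other xenobiotic enzymes had a median of -2.07 against quiescent and -1.71 against irradiated cells. Aox1, an aldehyde oxidase, read 299, 246 and 635 in quiescent, 48, 50, 158 and 105 in irradiated, and 5 on each activated array, with differences of -4.17 (adjusted p = 0.00209) and -2.21 (adjusted p = 0.0240). The glutathione transferases Gsta4 (-3.46, adjusted p = 0.0351), Gstm1 (-1.86, adjusted p = 0.0146) and Mgst1 (-3.63, adjusted p = 0.0329) and the flavin monooxygenase Fmo1 (-4.10, adjusted p = 0.0196) also fell against quiescent cells. Against irradiated cells the same 5 genes and Gstk1 (-3.63, adjusted p = 0.0346) fell. With only the 2 groups compared, Gsta4, Gstm1, Mgst1 and Fmo1 lost the call against quiescent cells (adjusted p 0.119 to 0.170), and Aox1 kept it (adjusted p = 0.0190). Against irradiated cells Gsta4, Mgst1 and Gstk1 lost it in that fit (adjusted p 0.0715 to 0.0938). Among the 10 fits that left out 1 array, the call against quiescent cells was lost in 8 for Mgst1 (adjusted p up to 0.109, without quiescent replicate 1), in 7 for Gsta4 (up to 0.117, without activated replicate 2), in 3 for Gstm1 (up to 0.0541, without quiescent replicate 4), in 3 for Fmo1 (up to 0.0630, without activated replicate 1) and in 0 for Aox1. Against irradiated cells it was lost in 8 for Gstk1 (up to 0.100, without activated replicate 2), in 4 for Gsta4 and in 4 for Aox1 (up to 0.0800 and 0.0828, without the same array), and in 3 for Mgst1 (up to 0.0599, without irradiated replicate 3).

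**Figure D4:**
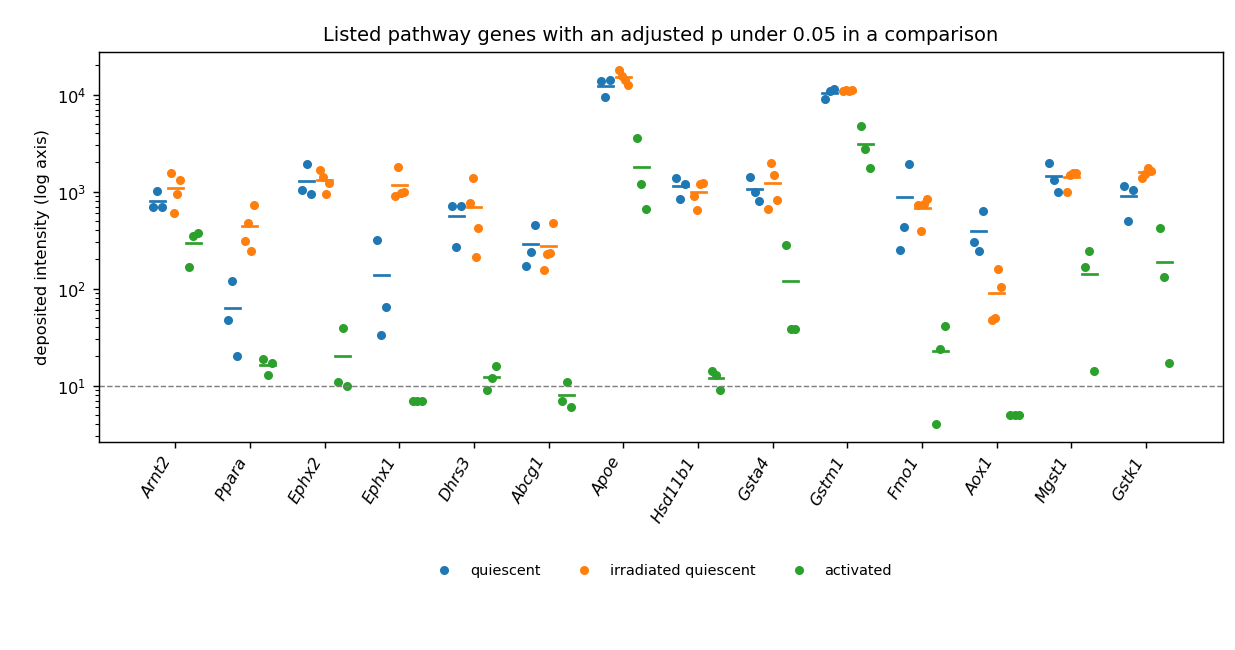
Intensity (log axis) of the 14 genes of the pathway lists that were called in a comparison, with 1 point per array coloured by group, a short line at each group mean and a dashed line at the lower limit of 10. Ephx2 lies between 941 and 1906 on the quiescent and irradiated arrays and between 10 and 39 on the activated ones, and the irradiated points of Ppara lie between 244 and 732, above both other groups.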

How the data were processed

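Per the labels' protocols, cDNA of total RNA was amplified (NuGEN Ovation Pico WTA System), labelled with biotin and hybridized to Affymetrix MOE 430 2.0 arrays. The authors' deposited table gives 1 whole-number intensity per probe set and array. The sources used here do not give its software or normalization, and scan dates were not used, so batches were not tested.

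Of the 45037 probe sets, the platform annotation gave 1 gene symbol to 34945, several to 932 and none to 9160, and 34741 were matched by Entrez identifier to RefSeq (GRCm38.p6). Where a gene had several probe sets, the one of highest mean log2 value over all arrays was used. Intensities were taken as log2(intensity + 16) without further normalization or filter. limma 3.58.1 (R 4.3.3) was fitted to 3 groups and all 10 arrays with 7 residual degrees of freedom (prior 0.422) and tested on simulated data. Tests were two-sided.

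The members and lists were chosen with earlier results of these data known. Members are named if called in a comparison, if a group mean reached 100, or by sterol, steroid, vitamin D or retinoic acid role, and listed pathway genes if called. Cyp1a1, Cyp1a2, Cyp1b1, Cyp2e1, Cyp3a11, Cyp2u1, Cyp4f13, Ahr and the members of gene clusters are named outside this rule, after their values were seen. The same holds for Cyb5r3, Cyb5a, Cyb5b, Cyb5r1, Fdx1 and Pgrmc2. Alternatives changed the pseudocount, a floor, quantile normalization, the genes and probe sets used, the moderation, the arrays fitted, the replicate block and each array in turn; those for the pathway genes were added after seeing the data.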

Additional observations from a re-analysis of the deposited data

Results flagged for a closer look

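Of the 15 P450 genes above the lower limit, 2 had 1 irradiated array far from the other 3, by a gap to the nearest that exceeds Dixon's critical value for 4 arrays. Cyp2r1, the vitamin D 25-hydroxylase, read 174 on irradiated replicate 2 and 5 on the others, a gap of 1 of the range. Cyp2u1, a fatty acid hydroxylase, read 217 on irradiated replicate 1 and 10, 7 and 6 on the others, a gap of 0.981 of the range. About 1 in 20 groups of normally spread values is picked out this way by chance. That rate does not hold here, because genes were taken if any array passed the limit and many values lie near it. Cyp2r1 passed the limit on irradiated replicate 2 alone, so its flag came with that choice.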

How the results depend on the processing

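Under 19 alternatives, 10 of them leaving out 1 array, the P450 genes called were 6 to 9 in activated against quiescent cells (7 as reported), 7 to 9 in activated against irradiated cells (8 as reported) and 0 in irradiated against quiescent cells. Those of the 92 pathway genes were 10 and 14 as reported. For activated against quiescent cells they were 5 with only the 2 groups compared, 4 with the replicate block and 6 to 10 with 1 array left out, and for activated against irradiated cells 7 with the block. In irradiated against quiescent cells they were 0 to 1 with 1 array left out. Same-numbered arrays did not deviate together (correlations -0.0255 to 0.0177). With so few arrays per group this cannot tell whether same-numbered samples were collected together, and the sources used here do not say. With the replicate number as a block, 444 of all genes were called in activated against quiescent cells against 1094 without it, Cyp4v3 had -4.10 (adjusted p = 0.0531) and Cyp2j6 had -2.42 against irradiated cells (adjusted p = 0.140). The block also left uncalled, of the pathway genes against quiescent cells, Dhrs3 (-3.99, adjusted p = 0.131), Apoe (0.0860), Gsta4 (0.204), Gstm1 (0.127), Fmo1 (0.0742) and Mgst1 (0.185), and against irradiated cells Ppara (-3.70, adjusted p = 0.0605), Dhrs3 (-4.30, 0.0696), Arnt2 (0.198), Gsta4 (0.120), Gstm1 (0.0621), Gstk1 (0.122), Aox1 (0.0605) and Mgst1 (0.101). A pseudocount of 1 left uncalled Mgst1 against quiescent cells (0.0573) and Gstk1 against irradiated cells (0.0504), and one of 64 Aox1 against irradiated cells (0.126). Cyp46a1 passed against quiescent cells among the brighter 50% of genes (adjusted p = 0.0122), when other genes were read by the mean of their probe sets (0.0485; it has 1 itself), with trend and robust moderation (0.0451), and without irradiated replicate 2 (0.0453) or 3 (0.0464). Cyp2j6 passed against quiescent cells with the mean of probe sets (-2.51, adjusted p = 0.0389) and missed the threshold against irradiated cells with a pseudocount of 1 (0.0504). Signs turned only in irradiated against quiescent cells, for genes with no call: Cyp2j6 to -0.092 and Cyp4v3 to -0.14 with the mean of probe sets, Cyp4v3 to -0.063 with quantile normalization, and Cyp7b1 to 0.21 with the block. Leaving out an array there gave -0.24 to 0.73 for Cyp20a1, -0.024 to 0.34 for Cyp2d22, -0.79 to 0.10 for Cyp39a1, -0.43 to 0.93 for Cyp4f16, -0.33 to 0.25 for Cyp4v3 and -0.34 to 0.29 for Cyp7b1. The causes were not tested. The number of arrays limits the precision, and intensities of at most 10 carry no order.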

Other observations

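A probe set named for both Cyp4f37 and Cyp4f16 was left out of the family because it has 2 symbols. It read 393, 5 and 394 on the quiescent arrays, 5, 5, 13 and 5 on the irradiated ones and 5 on each activated one. Only quiescent replicates 1 and 4 were high. The other 3 P450 probe sets with several symbols were near the lower limit.

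A second probe set of Cyp2j6 read 118, 543 and 170 in quiescent, 182, 12, 664 and 68 in irradiated, and 11, 5 and 16 in activated cells, where the activated arrays were low as for the first, with irradiated replicate 2 at 12 beside them. A further probe set of Cyp20a1 read 911, 26 and 1246, then 2713, 182, 125 and 771, and 506, 222 and 10, and its groups overlapped as for the first. A second probe set of Cyp2u1 was near the limit on all arrays but irradiated replicate 4, where it read 93.

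Of the genes that work with the P450 enzymes, Ppara had a log2 difference of 2.62 in irradiated against quiescent cells (SE 0.51) and Aox1 one of -1.96, and neither was called by limma (adjusted p = 0.515 and 0.707).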
